A study of Mus musculus with 7 samples.

Results

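The glucocorticoid receptor (NR3C1) was mapped by chromatin immunoprecipitation and sequencing (ChIP-seq) in mouse embryonic fibroblasts, and the sites described here are 884 receptor sites found after ligand in every library, in no library without ligand, and yet close to receptor signal without ligand. Summits of all 7 libraries, the single-base peak positions that the authors deposited, had been linked into 35316 sites with at most 200 bp between neighbouring summits. The 884 sites were chosen by these same lists: each lies on chromosomes 1 to 19, is held by all 4 dexamethasone (dex) lists and by none of the 3 vehicle lists, and has its midpoint within 10 kb of a vehicle summit. They are called vehicle-adjacent sites below. Of 8842 autosomal sites held by all 4 dex lists, 2720 had no vehicle summit (30.8%), and the vehicle-adjacent sites were 884 of these 2720. The other 1836 lay farther than 10 kb from any vehicle summit.

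The libraries came from Klf15-/- cells with dex (2 libraries), wild-type (WT) cells with dex (2), Klf15-/- cells with ethanol vehicle (2) and WT cells with ethanol vehicle (1). Dex, a synthetic glucocorticoid, was given for 1 h to embryo-derived fibroblasts kept in medium with serum, and an in-house receptor antibody was used in all libraries. The WT vehicle library was made from pooled material because little was available. Nothing in the labels ties the 2 libraries of a group to separate cultures or embryos, and any spread between them may be technical. The absence of Klf15 was not checked here.

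The glucocorticoid receptor is a ligand-activated transcription factor of the nuclear receptor family. Without hormone most of it is held in the cytoplasm by chaperones such as HSP90, and with hormone it enters the nucleus and binds DNA, either at its own palindromic response elements or through other DNA-bound factors such as AP-1. Binding sites often lie in groups within enhancer regions. Klf15, a Krüppel-like zinc-finger factor, is itself induced by glucocorticoids. The sites carry mm9 coordinates, counted from 1. Genes, motifs and sequence are not analysed here because no genome or annotation of that build was used.

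List length differed between the libraries and limits every count. The Klf15-/- dex lists held 19999 and 20169 summits and the WT dex lists 15628 and 16927. The Klf15-/- vehicle lists held 7325 and 8088 summits and the WT vehicle list 10034. Read depth is unknown from these files. The first Klf15-/- vehicle list stood apart, with 414 pairs of neighbouring summits less than 200 bp apart, while the other lists had 4 or fewer. The Klf15-/- lists also held 75 to 197 summits on chromosome Y, against 1 or 2 in the WT lists.

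Most vehicle-adjacent sites lay a few kilobases from the nearest vehicle summit. The distance ran from 0.2145 to 9.984 kb, with a median of 3.81 kb and quartiles of 1.499 and 6.81 kb. Their number per kilobase was highest next to the vehicle summits: it was 270 per kb between 0.2 and 0.5 kb (81 sites), 160 per kb between 0.5 and 1 kb (80 sites), 123 per kb between 1 and 2 kb (123 sites), 82 per kb between 2 and 5 kb (246 sites) and 70.8 per kb between 5 and 10 kb (354 sites). Among the sites beyond the limit it was 41.5 per kb between 10 and 20 kb. The lower and upper ends of this range come from the rule, so the distances are a description.

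**Figure D1:**
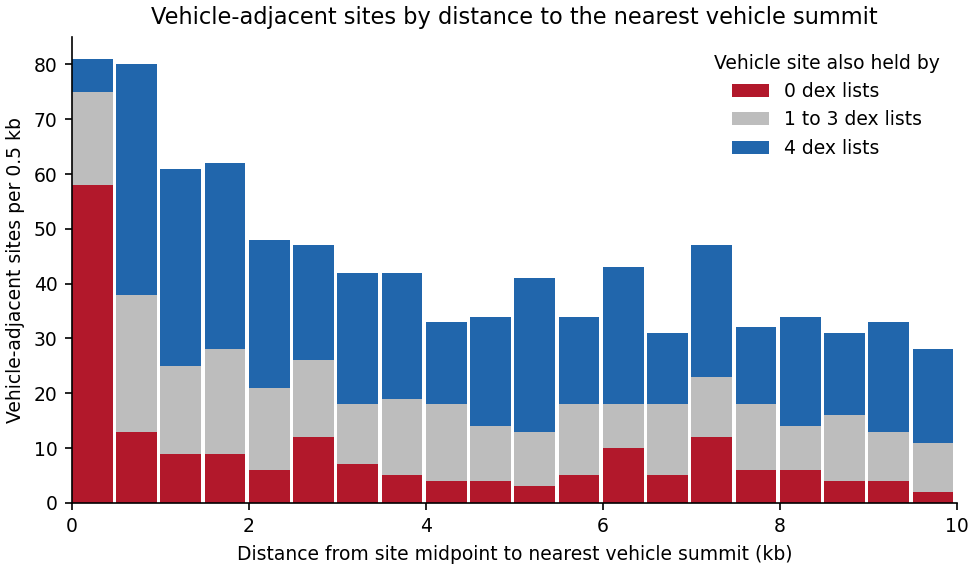
Number of vehicle-adjacent sites (vertical axis, per 0.5 kb) by distance from the site midpoint to the nearest vehicle summit (horizontal axis, kb), with colours for the number of dex lists that also hold the vehicle site. The bar below 0.5 kb holds 81 sites, 58 of them beside a vehicle site that no dex list holds.

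Sites at the limit of 10 kb were as follows. Just inside it were a site on chromosome 10 (98674684 to 98674807), 9.98 kb from a WT vehicle summit, and a site on chromosome 1 (175962152 to 175962220), 9.984 kb from a summit of the first Klf15-/- vehicle list. Just outside it were a site on chromosome 7 (112624147 to 112624267) at 10.011 kb and a site on chromosome 3 (65447767 to 65447850) at 10.03 kb. These 4 sites were of low to middling score in most dex lists. The chromosome 1 site stood at percentiles 36.2 and 60.7 of the Klf15-/- dex lists and 62.4 and 75.5 of the WT dex lists, and the chromosome 7 site at 61.1 and 60.9 in Klf15-/- and 30.1 and 21.6 in WT. A percentile here is the rank of the authors' score within its own list, from 0 (lowest) to 100 (highest), since the scale of the score is not stated.

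The other edge of the rule, the 200 bp gap, fell in a thin tail of the summit offsets. Around the mean dex summit of the 8842 sites of all 4 dex lists, the nearest vehicle summit was less than 50 bp away in 4593 sites, 50 to 100 bp away in 1099, 100 to 150 bp away in 304 and 150 to 200 bp away in 94. It was 200 to 300 bp away in 54 sites, of which 23 were vehicle-adjacent sites and the rest were linked to the vehicle summit through other summits. Between 300 and 400 bp there were 30 sites and between 400 and 500 bp another 30, nearly all vehicle-adjacent (29 and 30). The gap chosen decides how many close sites there are. With a gap of 100 bp, 202 sites lay under 0.5 kb, and with a gap of 500 bp none did by construction.

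The vehicle site next door was, in most cases, also a dex site. The nearest vehicle summit belonged to a site held by all 4 dex lists for 440 of the 884 sites (49.8%, exact 95% interval 46.4 to 53.1%) and by at least 1 dex list for 700 (79.2%, 76.4 to 81.8%). For the other 184 (20.8%, 18.2 to 23.6%) the vehicle site was in no dex list. Intervals here and below cover counting error only. The neighbour was held by the WT vehicle list in 606 cases, by the second Klf15-/- vehicle list in 455 and by the first in 314. It was seen in a single vehicle list in 538 cases (60.9%) and in all 3 in 145 (16.4%). The share beside a site of all 4 dex lists was 55.9% without the first Klf15-/- vehicle library and 57.6% without the WT vehicle library. Among the 415 shared dex-only sites 10 to 20 kb from a vehicle summit, this share was 55.9% (51.0 to 60.7%). A neighbour that is also a dex site was thus not particular to vehicle-adjacent sites.

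The share of sites beside a vehicle site without a dex summit was highest under 0.5 kb. Of the 81 sites under 0.5 kb, 58 lay beside a vehicle site of no dex list (71.6%, 60.5 to 81.1%), and 6 beside a site of all 4 dex lists. Of the 803 sites farther away, 126 lay beside a vehicle site of no dex list (15.7%, 13.2 to 18.4%). From 0.5 to 20 kb this share hardly varied, lying between 14.6% and 16.4% in every distance class. By the rule each dex list already had a summit in the vehicle-adjacent site. Under 0.5 kb it could hold the vehicle site only through another summit that close. Such summits were few within any dex list. Pairs of neighbouring summits 200 to 500 bp apart numbered 169 to 219 in each, against 404 to 582 pairs 500 to 1000 bp apart. For 49 of the 58 sites, the vehicle site beside them was in a single vehicle list. Over all 58 it was in the WT vehicle list for 35. It was in the first Klf15-/- vehicle list for 16 and in the second for 17, and these counts overlap. Without the first Klf15-/- vehicle library, which had 696 pairs of summits 200 to 500 bp apart against 138 and 141 in the other vehicle lists, the counts were 53 of 75. The class under 0.5 kb was singled out after the data were seen. Whether a vehicle summit and a dex summit at this distance belong to 1 binding event was not tested.

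The 5 closest sites show this arrangement one by one. The closest, on chromosome 13 (114762677 to 114762686), stood at percentiles 95.9 and 95.3 in Klf15-/- dex and 91.1 and 85.5 in WT dex, and a WT vehicle summit at percentile 16.5 of its list lay 214.5 bp from its midpoint. Next came a site on chromosome 7 (91481596 to 91481617) at 225.5 bp, a site on chromosome 18 (70695776 to 70695833) at 230.5 bp, a site on chromosome 12 (80453511 to 80453534) at 231.5 bp and a site on chromosome 17 (64010613 to 64010681) at 236 bp. In all 5, no dex list held the vehicle site. The chromosome 12 site was among the highest-scoring of all, at percentiles 99.3 and 99.4 in Klf15-/- dex and 99.6 and 99.3 in WT dex, and its vehicle summit stood at percentile 89.2 of the WT vehicle list. The chromosome 18 site varied more, at percentiles 66.2 and 41.8 in Klf15-/- dex and 29.4 and 16.5 in WT dex.

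Vehicle-adjacent sites covered almost the whole range of dex scores and stood on average where the distant sites stood. Their median percentile was 66.2 and 65.7 in the Klf15-/- dex lists and 61.9 and 62.5 in the WT dex lists. The corresponding medians of the 1836 distant sites were 66.5 and 66.8 in Klf15-/- and 59.9 and 63.1 in WT. Between these sets the order of the medians changed from list to list, with the vehicle-adjacent sites higher in 1 of the 4. Both sets stood below the 6122 autosomal sites that had a vehicle summit as well as all 4 dex summits, whose medians were 76.5 and 76.8 in Klf15-/- and 71.2 and 72.9 in WT. These sets are cut from the same lists by the rule, so no test was made.

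**Figure D2:**
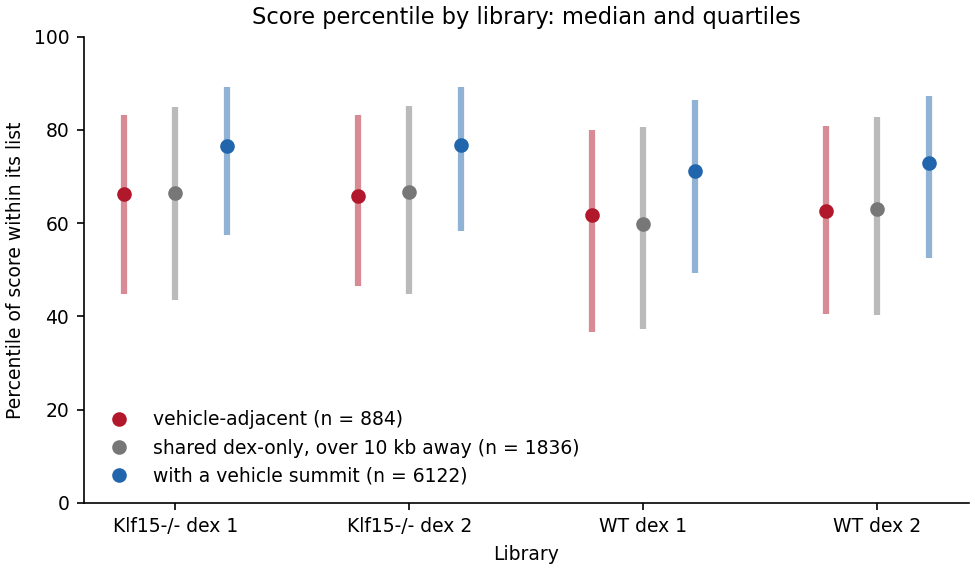
Percentile of the authors' score within each dex list (vertical axis, 0 to 100) for vehicle-adjacent sites, shared dex-only sites over 10 kb from a vehicle summit, and sites with a vehicle summit; points are medians and lines run between the quartiles. The medians of vehicle-adjacent sites, from 61.9 to 66.2, lie close to those of the distant sites and below those of sites with a vehicle summit.

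High and low scores were also about as frequent as among distant sites. Above percentile 80 in all 4 dex lists were 133 vehicle-adjacent sites (15.05%, 12.8 to 17.6%), against 291 distant sites (15.8%, 14.2 to 17.6%) and 1397 sites with a vehicle summit (22.8%, 21.8 to 23.9%). Above percentile 90 in all 4 lists were 59 vehicle-adjacent sites (6.67%, 5.12 to 8.53%), against 161 distant sites (8.77%, 7.51 to 10.2%). Sites with a vehicle summit gave 662 (10.8%, 10.0 to 11.6%). At least 1 list had the site below percentile 10 in 117 cases (13.2%, 11.1 to 15.6%), against 229 of the distant sites (12.5%, 11.0 to 14.1%).

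The closest sites had the higher scores. Under 0.5 kb the median percentile was 76.9 and 75.1 in the Klf15-/- dex lists and 66.3 and 67.6 in the WT dex lists. Between 5 and 10 kb it was 63.6 and 64.3 in Klf15-/- and 61.4 and 61.6 in WT. In all 4 lists the 81 closest sites therefore ranked higher than the 354 sites between 5 and 10 kb. The classes in between, from 0.5 to 5 kb, had medians from 59.6 to 70.0.

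The share of dex-only sites near a vehicle summit varied little with their score. By quintiles of the mean percentile, the share within 10 kb was 31.4%, 33.5%, 32.2%, 35.3% and 30.1% of 544 sites each, from the lowest quintile to the highest, and every interval overlapped the others. The share over all shared dex-only sites was 32.5% (30.7 to 34.3%). It was 32.0% (30.0 to 34.0%) for autosomal sites without a vehicle summit held by 3 of the 4 dex lists. For sites held by both Klf15-/- dex lists alone it was 25.3% (23.5 to 27.1%), against 33.3% (30.4 to 36.3%) for those held by both WT dex lists alone. Sites of a single dex list had 27.1% (26.2 to 28.0%). Sites are not replicates of a condition, so these intervals do not compare genotypes. The share depended on the longest vehicle list: it was 24.3% without the WT vehicle library, 29.8% without Klf15-/- vehicle library 1 and 28.0% without Klf15-/- vehicle library 2.

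The highest-scoring vehicle-adjacent sites, picked for their scores, stood near the top of the dex lists. The 10 that ranked highest in the dex list where they stood lowest were all above percentile 99.4 in all 4 dex lists. The first, on chromosome 10 (24116051 to 24116066), stood at percentiles 99.97 and 99.88 in Klf15-/- dex and 99.96 and 99.96 in WT dex. A vehicle site lay 1.10 kb from it, held by all 3 vehicle lists and all 4 dex lists. The second, on chromosome 7 (71041939 to 71041979), at percentiles 99.96 and 99.97 in Klf15-/- and 99.87 and 99.95 in WT, lay 5.44 kb from a summit at percentile 99.1 of the WT vehicle list. The vehicle summit beside the first stood at percentile 88.1 of the second Klf15-/- vehicle list, so both sites had a high-scoring vehicle summit nearby.

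The third strongest, on chromosome 17 (28557285 to 28557305), had a different setting. It stood at percentiles 99.88 and 99.81 in Klf15-/- dex and 99.82 and 99.86 in WT dex, and its nearest vehicle summit, 0.306 kb away, was in the first Klf15-/- vehicle list alone, at percentile 40.3, and in no dex list. Next came a site on chromosome 16 (25059479 to 25059496), 2.48 kb from a vehicle site held by all 7 lists, and a site on chromosome 11 (43805736 to 43805781), 6.24 kb from its neighbour. A site on chromosome 6 (38785513 to 38785541) was almost at the limit, with 9.87 kb. The remaining 4 were on chromosome 11 (51729698 to 51729702, at 6.55 kb), chromosome 4 (57741388 to 57741419, at 2.84 kb), chromosome 3 (145177398 to 145177427, at 8.04 kb) and chromosome 17 (26729673 to 26729729, at 6.25 kb). Of these 10 sites, the one on chromosome 17 described first and the one on chromosome 4 lay beside a vehicle site that no dex list held, and each of those vehicle sites was in 1 vehicle list.

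The dex scores of a vehicle-adjacent site and of its vehicle neighbour can be set side by side where all 4 dex lists hold both. The rule picked the first for having no vehicle summit and the second has one, so the pairs are a description. To compare scores of sites within and between lists of unequal length, the 8842 autosomal sites of all 4 dex lists were ranked against each other in each list, from 0 to 100. Among the 440 sites whose vehicle neighbour was also in all 4 dex lists, the vehicle-adjacent site ranked below its neighbour in all 4 lists in 173 (39.3%, 34.7 to 44.1%), above it in all 4 in 79 (18.0%, 14.5 to 21.9%) and differently between lists in 188. Median ranks of the vehicle-adjacent sites were 36.0 and 37.6 in Klf15-/- and 43.3 and 40.5 in WT. Those of their neighbours were 56.8 and 57.4 in Klf15-/- and 57.6 and 55.7 in WT. Sites chosen the same way without pairing gave medians that ran, over the 4 lists, from 39.6 to 40.6 for the distant dex-only sites and from 53.7 to 54.3 for the 6122 sites with a vehicle summit. Whether the pairs differed by more than these sets was not tested.

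The counts differed by the number of vehicle lists that held the neighbour. Beside neighbours in all 3 vehicle lists (133 pairs), the vehicle-adjacent site was lower in all 4 dex lists in 84 (63.2%, 54.4 to 71.4%) and higher in 13 (9.77%, 5.31 to 16.1%). Beside neighbours in 2 vehicle lists (137 pairs) the counts were 52 lower and 20 higher. Beside neighbours in 1 vehicle list (170 pairs) they were 37 lower (21.8%, 15.8 to 28.7%) and 46 higher (27.1%, 20.5 to 34.4%). The median dex rank of neighbours in all 3 vehicle lists was between 75.9 and 79.6 over the 4 dex lists, and that of neighbours in 1 vehicle list was between 33.3 and 40.1.

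Other receptor sites around the vehicle-adjacent sites were counted next. Another site of all 4 dex lists lay within 10 kb of 571 of them (64.6%, 61.3 to 67.7%), against 210 of the distant sites (11.4%, 10.0 to 13.0%). The rule fixes much of this, since a vehicle neighbour is often itself a dex site. Another shared dex-only site lay within 10 kb of 133 of 884 vehicle-adjacent sites (15.05%, 12.8 to 17.6%) and of 209 of 1836 distant sites (11.4%, 9.97 to 12.9%). The 884 sites had 829 different vehicle neighbours, 47 of them shared by 2 sites and 4 shared by 3.

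No stretch of 20 kb held more than 3 vehicle-adjacent sites, and 7 stretches held 3. The tightest was on chromosome 18 (68208778 to 68212631), with 3.76 kb between the outer midpoints, followed by chromosome 6 (5389341 to 5393299) with 3.89 kb, chromosome 14 (123927408 to 123932406) with 4.97 kb and chromosome 17 (26667105 to 26672303) with 5.18 kb. The others were on chromosome 10 (76664989 to 76674209), chromosome 11 (86409831 to 86420736) and chromosome 8 (124698057 to 124711485). Around a single vehicle-adjacent site there were 1 to 9 vehicle summits within 10 kb, counting each list, with a median of 2, and 401 sites had only 1.

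The spread of summit positions is bounded by the rule, which links summits only across gaps of at most 200 bp and keeps only sites of all 4 dex lists. The values are therefore a description. The 4 dex summits of a vehicle-adjacent site spanned a median of 74 bp (quartiles 47 and 112 bp), against 76.5 bp (49 and 114 bp) for distant sites. The span of sites with a vehicle summit, a median of 124 bp, includes the vehicle summits. The median offset between 2 libraries was 35 bp for the Klf15-/- replicates and 32 bp for the WT replicates. It was 33 to 36 bp for the 4 pairs of a Klf15-/- and a WT library.

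Klf15-/- and WT cells were compared after dex by the ranks of these sites. The Klf15-/- lists held 75 to 197 chromosome Y summits and the WT lists 1 or 2. Genotype therefore cannot be told apart from other differences between the cells. The median rank of the 884 sites was 39.5 and 38.2 in the Klf15-/- dex lists and 42.1 and 39.8 in the WT dex lists. The Klf15-/- values lay below the WT values without overlap, but the gap between the nearest lists, at 39.5 and 39.8, was smaller than the gap between replicates of either genotype. With 2 libraries a genotype, the smallest two-sided p that exact permutation allows is 0.3333, and no test was made. Site by site, the median difference of mean ranks (Klf15-/- minus WT) was 0.28 points of 100, with quartiles of -12.9 and 12.6.

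Single sites nevertheless differed more between libraries of different genotype than between the 2 libraries of a genotype. The median absolute difference in rank was 9.76 points between the Klf15-/- replicates, 11.6 between the WT replicates and 14.6 to 15.6 over the 4 pairs of a Klf15-/- and a WT library. All 4 pairs between genotypes were thus above both replicate pairs. For all 8842 sites the values were 9.60 and 10.2 within genotypes and 14.5 to 14.8 between them, so the order was that of the whole series. Spread within a genotype may be technical, so genotype cannot be told apart from differences between cultures.

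Both Klf15-/- ranks were above both WT ranks at 228 vehicle-adjacent sites (25.8%), where 25.9% of all 8842 sites did so. Both Klf15-/- ranks were below both WT ranks at 241 (27.3%), again with 27.3% of all sites. The shares were those of the background, so the counts are no result about these sites. Ranks overlapped at the other 415. Using percentiles of the whole lists, whose lengths differ between genotypes, the split was 295 higher and 185 lower. The shares over all sites were not taken with these percentiles or with a library left out. Counts in those settings are therefore no result about these sites either. Fewer lists have to be separated when 1 is left out, and the counts were then larger: 387 and 386 higher and 378 and 388 lower without the first or second Klf15-/- dex library, and 405 and 424 higher and 436 and 392 lower without the first or second WT dex library.

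**Figure D3:**
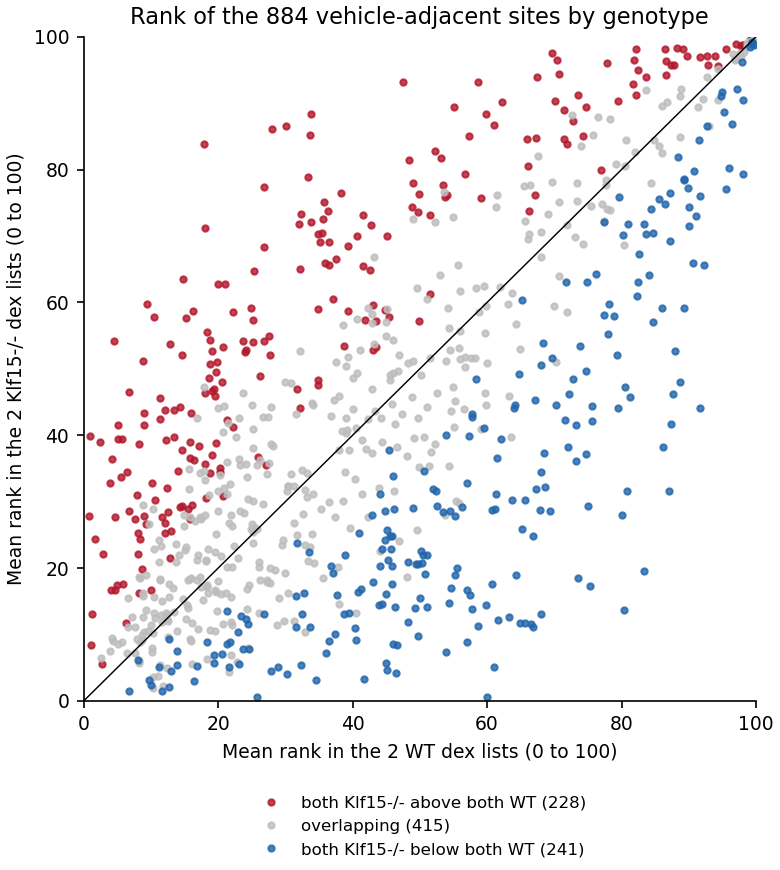
Mean rank of each of the 884 vehicle-adjacent sites in the 2 Klf15-/- dex lists (vertical axis) against the 2 WT dex lists (horizontal axis), both from 0 to 100 among the sites of all 4 dex lists; the line marks equal ranks. Sites with non-overlapping ranks lie on both sides of the line in similar numbers, 228 above and 241 below.

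At the extremes the ranks of the genotypes were far apart. The site with the widest gap in favour of Klf15-/- cells, on chromosome 9 (106280501 to 106280578), ranked at 80.5 and 87.1 in Klf15-/- dex and at 10.0 and 25.8 in WT dex. It lay 8.48 kb from a summit of the second Klf15-/- vehicle list that no dex list held. The next 4 were on chromosome 4 (9008027 to 9008110), with ranks of 86.7 and 90.1 in Klf15-/- and 32.1 and 35.7 in WT, on chromosome 5 (107553205 to 107553243), on chromosome 6 (118771630 to 118771702) and on chromosome 8 (89296818 to 89297029). Their distances to a vehicle summit were 1.38, 0.369, 3.88 and 0.361 kb in that order.

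In the other direction, the site with the widest gap was on chromosome 19 (35377167 to 35377360) and ranked at 18.1 and 20.9 in Klf15-/- dex and at 85.5 and 81.1 in WT dex. It lay 3.88 kb from a WT vehicle summit. The second, on chromosome 12 (8461569 to 8461632), was near the bottom of the Klf15-/- lists, with ranks of 0.37 and 0.90, against 54.5 and 65.3 in WT. The others were on chromosome 6 (143102482 to 143102623), with 9.64 and 17.8 in Klf15-/- and 71.2 and 89.6 in WT, on chromosome 8 (58814715 to 58814733) and on chromosome 15 (54685025 to 54685032). All 5 of these sites had a vehicle neighbour held by all 4 dex lists, while of the 5 in the opposite direction only the one on chromosome 4 had. These sites were picked for their gaps, so the gaps are a description.

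The sites were also divided by the genotype of the vehicle lists nearby. Among 222 sites with vehicle summits of Klf15-/- cells alone within 10 kb, both Klf15-/- dex ranks were higher at 70 (31.5%, 25.5 to 38.1%) and lower at 36 (16.2%). Among 217 sites with summits of the WT vehicle list alone they were higher at 42 (19.4%, 14.3 to 25.2%) and lower at 75 (34.6%). Among the 445 sites with both, they were higher at 116 (26.1%) and lower at 130 (29.2%). Over all 8842 sites of the 4 dex lists, 25.9% were higher and 27.3% lower. The median rank difference (Klf15-/- minus WT) was 1.97 points beside Klf15-/- vehicle summits alone, -2.83 points beside WT vehicle summits alone and 0.64 points beside both.

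**Figure D4:**
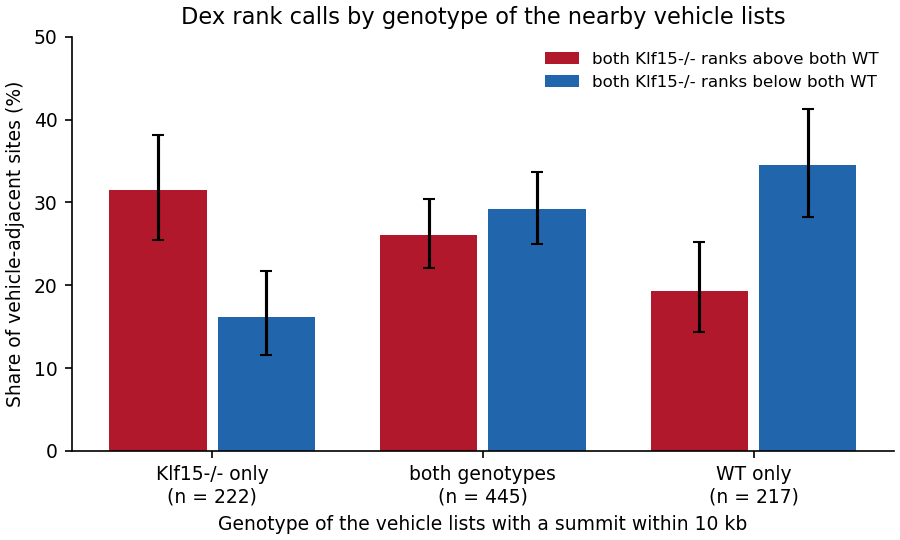
Share of vehicle-adjacent sites (vertical axis, %) with both Klf15-/- dex ranks above or below both WT dex ranks, by the genotype of the vehicle lists with a summit within 10 kb; error bars are exact 95% binomial intervals for counting error. Beside Klf15-/- vehicle summits alone 31.5% were higher and 16.2% lower, and beside WT vehicle summits alone 19.4% were higher and 34.6% lower. Over all 8842 sites of the 4 dex lists, 25.9% were higher and 27.3% lower.

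The difference between these classes was smaller without the vehicle library that stood apart. These splits were chosen after the data were seen, and the difference itself was not tested. A library left out here was dropped only from the vehicle summits counted nearby. The linked sites and the choice of dex-only sites still came from all 7 lists. Without the first Klf15-/- vehicle library, 28.6% of 133 sites beside Klf15-/- vehicle summits alone were higher and 21.1% lower, and 20.2% of 262 sites beside WT vehicle summits alone were higher and 31.7% lower. Without the second Klf15-/- vehicle library the shares were 35.8% higher and 11.0% lower of 109 sites, and 23.0% higher and 32.0% lower of 391. Among shared dex-only sites whose nearest vehicle summit was 10 to 20 kb away, 36.3% of 102 were higher and 21.6% lower beside Klf15-/- summits alone, and 16.7% of 132 were higher and 33.3% lower beside WT summits alone. At that distance on chromosomes 8, 10, 15, 17 and 19, lower ranks prevailed in both classes: 8.33% of 24 were higher and 45.8% lower beside Klf15-/- summits alone, and 8.33% of 36 were higher and 36.1% lower beside WT summits alone. On the same chromosomes within 10 kb, 18% of 50 were higher and 20% lower beside Klf15-/- summits alone. Beside WT summits alone it was 14.5% and 45.2% of 62. On chromosomes 1, 7, 9 and 14 the order was that of all autosomes. Within 10 kb, 46% were higher and 8% lower of 50, against 20.5% and 28.2% of 39 beside WT summits alone. At 10 to 20 kb it was 64% and 12% of 25, against 16% and 36% of 25.

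Ranks were also set out by chromosome, in groups that had been defined on earlier results of these same data, so the shares in them are a description and no support. Chromosomes 8, 10, 15, 17 and 19 had 230 vehicle-adjacent sites, with both Klf15-/- ranks higher at 44 (19.1%, 14.3 to 24.8%) and lower at 78 (33.9%, 27.8 to 40.4%). All other sites of the 4 dex lists on these chromosomes gave 19.4% and 34.1%. On chromosomes 1, 7, 9 and 14, 51 of 165 vehicle-adjacent sites were higher (30.9%, 24.0 to 38.6%) and 29 lower (17.6%, 12.1 to 24.3%), against 29.9% and 23.7% of the other sites. On the remaining autosomes the 489 vehicle-adjacent sites divided evenly, with 133 higher and 134 lower. The 47 vehicle-adjacent sites of chromosome 17 went against their group, with 14 higher, 8 lower and a median difference (Klf15-/- minus WT) of 2.54 points. The other 322 sites of that chromosome did not, with a median difference of -0.54. Over all 8842 sites of the 4 dex lists, 25.9% were higher and 27.3% lower.

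By single chromosome, the median rank difference (Klf15-/- minus WT) of vehicle-adjacent sites ran from -7.70 points on chromosome 15 (42 sites) to 9.02 on chromosome 9 (43 sites). That of all other sites ran from -5.58 on chromosome 15 to 1.86 on chromosome 14. The sign was the same in both sets on 14 of 19 autosomes. On chromosome 9 both Klf15-/- ranks were higher at 19 of 43 vehicle-adjacent sites and lower at 5. Over all 8842 sites of the 4 dex lists, 25.9% were higher and 27.3% lower. The other 365 sites of chromosome 9 had a median difference of 0.78, and their shares were not counted. Chromosome 9 was picked as the extreme of 19 autosomes, so its counts are a description.

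**Figure D5:**
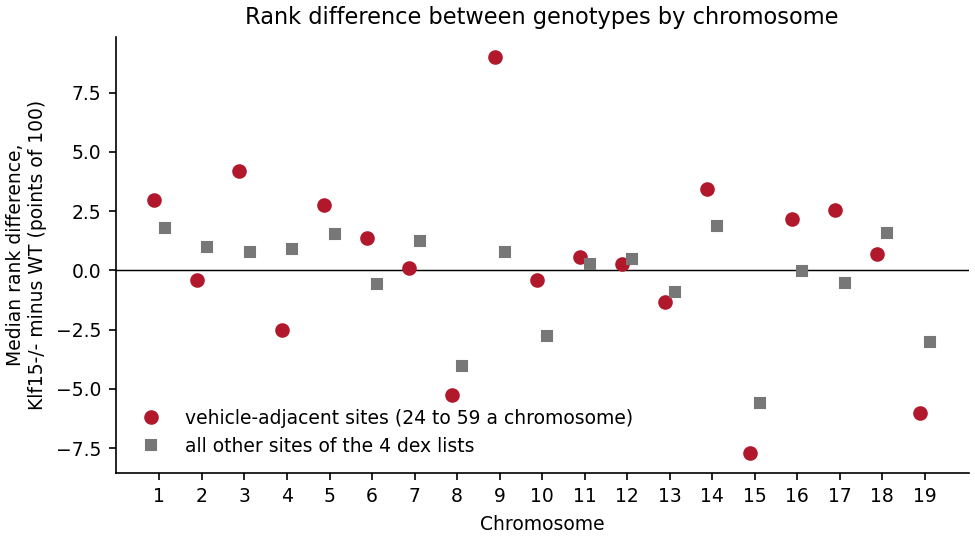
Median rank difference, Klf15-/- minus WT dex lists (vertical axis, points of 100), by autosome (horizontal axis) for vehicle-adjacent sites and for all other sites of the 4 dex lists. Chromosomes 8, 10, 13, 15 and 19 lie below 0 in both sets, and the highest point is that of the vehicle-adjacent sites of chromosome 9 at 9.02.

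The genotype of nearby vehicle lists and the chromosomes overlapped in part. Of the sites beside Klf15-/- vehicle summits alone, 22.5% lay on chromosomes 8, 10, 15, 17 and 19 and 22.5% on chromosomes 1, 7, 9 and 14. Of those beside WT vehicle summits alone, 28.6% and 18.0% did. On the remaining autosomes the shares were 31.1% higher and 18.0% lower of 122 sites beside Klf15-/- vehicle summits alone, and 21.6% higher and 31.0% lower of 116 beside WT vehicle summits alone. With the first Klf15-/- vehicle library also left out of the nearby summits, they were 23.3% higher and 24.7% lower of 73, and 22.9% higher and 29.3% lower of 140. With the second Klf15-/- vehicle library left out in its place, they were 41.0% higher and 9.84% lower of 61, and 25.8% higher and 29.2% lower of 209. The pattern on these autosomes thus depended on which of the Klf15-/- vehicle libraries was used. The part of the chromosomes and of the first Klf15-/- vehicle library in these shares was not tested.

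Vehicle-adjacent sites were found on every autosome, from 24 on chromosome 19 to 59 on chromosome 10. As a share of the shared dex-only sites of the chromosome they ran from 23.8% on chromosome 11 (38 of 160, 17.4 to 31.1%) to 42.0% on chromosome 17 (47 of 112, 32.7 to 51.7%). Chromosome 8 had 41.4% (33.2 to 50.1%) and chromosome 18 had 41.0% (30.3 to 52.3%). With the extremes picked from 19 chromosomes, these intervals do not set a chromosome apart.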

How the data were processed

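Receptor ChIP-seq libraries of 50 bp single reads were processed by the authors with CASAVA 1.4, Bowtie2 and SAMtools on mm9, per the submitters' processing notes. Peak caller, control and threshold: not given in the sources used here. Every deposited list gives summits of 1 library with a score, on an unstated scale, that was used only as a rank within its list; depth is unknown. Summits were linked at a gap of at most 200 bp, and the best summit of a list stood for it in a site. Sites named are the 10 highest by their lowest percentile, the 5 closest to a vehicle summit, 5 per direction by gap between genotypes, 2 on each side of 10 kb, and the fullest 20 kb stretches. The choice of sites, named sites and alternatives was made with earlier results of these data known. Groups come from sample titles. Alternatives were other gaps, limits, score filters, equal list lengths, whole-list percentiles and each library left out. No p-values were computed; shares carry exact (Clopper-Pearson) 95% intervals. The planned motif comparison was not run without an mm9 genome. Code was tested on simulated lists. The tools were matplotlib 3.10.9, scipy 1.17.1, pandas 2.3.3, numpy 2.4.6 and Python 3.11.15.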

Additional observations from a re-analysis of the deposited data

How the results depend on the processing

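Under the alternatives 153 values were computed again: 94 kept within 1.5 times for a count, the 95% interval for a share or distance, or 1 SD over lists for the percentile, and 59 moved. These values carry no sign. The number of sites, 884, was 305 with summits above their list's median score, 430 near vehicle sites of at least 2 vehicle lists and 530 at 5 kb; without each library it was 849 to 1106. The share near a vehicle summit, 32.5%, was 36.1% and 29.9% at gaps of 100 and 500 bp, 18.4% above the median score, 15.8% near sites of 2 vehicle lists, 19.5% at 5 kb, 47.8% at 20 kb, 26.6% without sites under 1 kb and, chosen after the data were seen, 29.5% without sites under 0.5 kb; without each library it was 24.3% to 33.1%. The median distance, 3.81 kb, was in the same settings 2.88, 4.42, 4.54, 4.865, 1.85, 6.54, 4.866 and 4.29 kb, and 3.53 to 3.94 kb without each library. The mean of the list medians of the percentile, 64.1, was 66.5 at a gap of 100 bp, 81.7 above the median score, 68.9 with dex lists of equal length and 59.4 to 64.6 without each library. Sites with higher ranks in Klf15-/-, 228, were 89 above the median score, 114 near sites of 2 vehicle lists, 145 at 5 kb and 209 to 424 without each library. Those with lower ranks, 241, were 88, 126 and 140, and 227 to 436 without each library. For these 2 counts, the shares over all sites were not taken under the alternatives. Which count was larger turned with the setting: more sites were higher than lower with whole-list percentiles (295 and 185), without the second Klf15-/- vehicle library (272 and 227), without the first Klf15-/- dex library (387 and 378), without the second WT dex library (424 and 392), above the median score (89 and 88) and at 5 kb (145 and 140). The share of neighbours in all dex lists, 49.8%, was 35.8% and 58.9% at gaps of 100 and 500 bp, 45.0% with dex lists of equal length, 77.2% near sites of 2 vehicle lists, 54.2% and 54.0% without sites under 1 kb and 0.5 kb, and 51.0% to 57.6% without each library. Stricter filters and shorter limits leave fewer sites by construction; for the other changes the cause was not tested. The replicate numbers are a shared label only: deviations of same-numbered dex libraries correlated with r = 0.0031 across 8842 sites, which are not independent. With a replicate block, counting sites where both same-numbered differences had 1 sign, 288 were higher and 288 lower. Library depth is unknown, and receptor below the authors' calling threshold in vehicle cells cannot be told from none.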

Other observations

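On chromosome X, which the choice of sites leaves out, 54 sites were held by all 4 dex lists and no vehicle list. Of these, 10 lay within 10 kb of a vehicle summit (18.5%, exact 95% interval 9.25 to 31.4%), against 884 of 2720 on the autosomes (32.5%, 30.7 to 34.3%).

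Within 0.5 kb of a vehicle-adjacent site, vehicle summits lay on 1 side only in all 81 cases (0 with both sides, exact 95% interval 0 to 4.45%). Within 1 kb they lay on both sides of 2 of 161 sites (1.24%, 0.151 to 4.42%). Sites with only 1 vehicle summit that close were counted too, and these cannot have summits on both sides. The counts are therefore a description, and no conclusion about sides is drawn. The vehicle summit nearest to a vehicle-adjacent site was of middling to low score in its own list, with a median percentile of 31.3 and 36.5 in the Klf15-/- vehicle lists (221 and 263 summits) and 41.5 in the WT vehicle list (400 summits).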
